A study of Mus musculus with 8 samples.

Results

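The genes described here are the potassium channel genes, taken as every row of the deposited table whose symbol begins with Kcn: 95 of 22609 genes. They include pore-forming subunits, the auxiliary subunits that bind them, and 1 noncoding RNA named for the channel gene it overlaps. Polyadenylated RNA was sequenced from naive CD8 T cells isolated from splenocytes of C57BL/6 mice aged 3 months. The samples were 4 Brca1 heterozygous (Het) libraries, numbered 31, 53, 56 and 139 in their titles, and 4 wild type (WT) libraries, numbered 45, 54, 57 and 65. The labels neither describe the Brca1 allele nor state that the libraries of a genotype came from different mice, and p-values therefore cover variation among libraries, which may be technical.

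Potassium channels let potassium leave the cell and hold the membrane potential negative. In lymphocytes that potential is the driving force for calcium entry after antigen receptor signalling, and the channels best known for it are the voltage-gated Kcna3 and the calcium-activated Kcnn4. In axons, Kcna1 and Kcna2 form channels beside the nodes of Ranvier, where they limit repetitive firing.

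Values are the authors' normalized read counts, which have the same distribution in each library, so the total of about 27489670 says nothing about depth. The lowest value above 0, that of a gene with about 1 read, was 0.9 to 1.9 in Het and 0.2 to 0.3 in WT libraries. Genes above 0 numbered 13863 to 14656 in Het and 15358 to 15569 in WT libraries, and 74 to 121 different values up to 100 in Het and 106 to 128 in WT libraries put a value of 100 at roughly 100 reads. The isolated cell type was checked with 11 CD8 T cell markers, whose summed level was 324018 to 360174 in Het and 308554 to 336353 in WT libraries. Testing with limma was limited to genes averaging 10 or more across libraries, on the log2(value + 1) scale, and an adjusted p under 0.05 over all 12048 tested genes was taken as a change. A gene high in 1 genotype alone could pass that filter, and the counts of lower and higher genes include such genes. The direction of such a gene is set by the filter, so these counts and the medians of gene lists are description and not support. The samples are bulk RNA, in which fewer cells of a type and less RNA per cell cannot be told apart.

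Of the 95 potassium channel genes, 24 were tested and 1, Kcna1, changed. It fell in Het libraries, while the T cell channel genes Kcnn4 and Kcna3 did not pass the test. Over all tested genes 0.515% were lower in Het by the same rule (62 of 12048) and none were higher at the adjusted threshold, with 457 higher at an unadjusted p under 0.05. With no trend 10 were higher and 75 lower in Het, and with no filter on low values 9 were higher and 114 lower, while the same limma test called no Kcn gene higher in either fit. The 24 genes were split into 12 higher and 12 lower in Het (median log2 difference -0.002, against 0.01 over all tested genes). That split was 11 higher and 13 lower with median of ratios scaling or array weights, and 14 higher and 10 lower with quantile normalization of the log2 values. It was 4 higher and 10 lower among the 14 genes with a mean of at least 50, 9 higher and 15 lower without WT 45, and 14 higher and 9 lower without Het 139. Over the 89 genes above 0 in any library it was 29 higher and 60 lower (median over all genes of that fit -0.001). The genes added there have a mean under 10, where the lowest values can be seen in WT libraries alone.

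**Figure D1:**
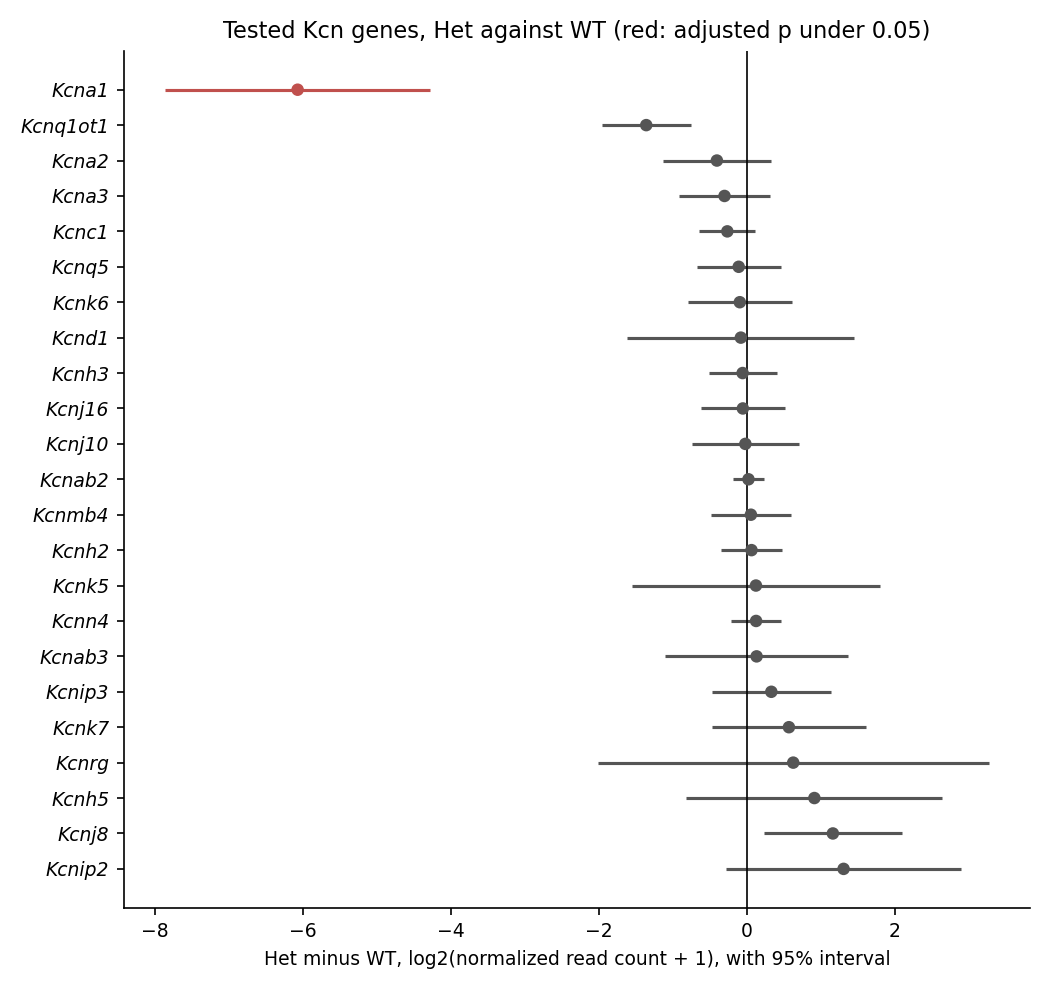
Difference in log2(normalized read count + 1), Het minus WT, for 23 of the 24 tested genes, as the limma estimate (point) with its 95% interval (line); 4 libraries of each genotype. Kcna1, at -6.08, is far to the left of the other genes, of which Kcnq1ot1 (-1.36) and Kcnj8 (1.16) are the ones with an interval that leaves out 0.

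Kcnn4 and Kcnab2 carried most of the potassium channel signal of these cells: per kilobase of exon (GENCODE vM21), they made up 75.6% to 86.7% of the summed Kcn level in Het and 74.2% to 84% in WT libraries. Kcnn4 encodes the intermediate-conductance calcium-activated channel of lymphocytes. Its normalized read count was 7150.2, 4842.1, 5628.6 and 7133.7 in Het 31, 53, 56 and 139, and 4704.5, 6690.4, 6094.8 and 5160.5 in WT 45, 54, 57 and 65. The genotypes overlapped, with the highest values in Het 31 and 139 and the lowest in WT 45 and Het 53. The means were 6189 ± 1147 in Het and 5663 ± 897 in WT (SD, n = 4 each). The log2 difference was 0.12 (SE 0.15, 95% interval -0.21 to 0.46, limma adjusted p = 0.823). The interval leaves out a 2-fold difference in either direction.

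Kcna3 encodes the voltage-gated channel that sets the resting potential of T cells. Its normalized read count was 762.8, 1678.6, 1676.4 and 1179.9 in Het 31, 53, 56 and 139, and 1839.4, 958.6, 1837.0 and 1822.8 in WT 45, 54, 57 and 65. Het 31, Het 139 and WT 54 were low and the other 5 libraries lay between 1676.4 and 1839.4, so that low libraries occurred in each genotype. Kcna3 averaged 1324 ± 442 in Het and 1614 ± 437 in WT (SD, n = 4 each), which is -0.31 in log2 terms (SE 0.28, 95% interval -0.92 to 0.31, limma adjusted p = 0.765). The ratio of Kcna3 to Kcnn4 ranged from 0.107 (Het 31) to 0.347 (Het 53) in Het libraries and from 0.143 (WT 54) to 0.391 (WT 45) in WT libraries (exact 2-sided permutation p = 0.371).

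Kcnab2, a cytoplasmic beta subunit that binds Kcna channels, was the steadiest of these genes. Its normalized read count was between 9646.2 and 11309.4 in Het and between 9540.4 and 11077.6 in WT libraries, and the log2 difference was 0.02 (SE 0.10, 95% interval -0.19 to 0.23, limma adjusted p = 0.963). Its sign flipped with median of ratios scaling (-0.001) and with array weights (-0.018). The other beta subunit genes were low. Kcnab3 was at 13.2 to 25.8 in Het 31, 53 and 56 and 6.8 in Het 139, against 8.7 to 25.8 in WT libraries, and Kcnab1, also known from brain, was at 0 to 1.9 in Het and 1.9 to 14.8 in WT libraries.

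**Figure D2:**
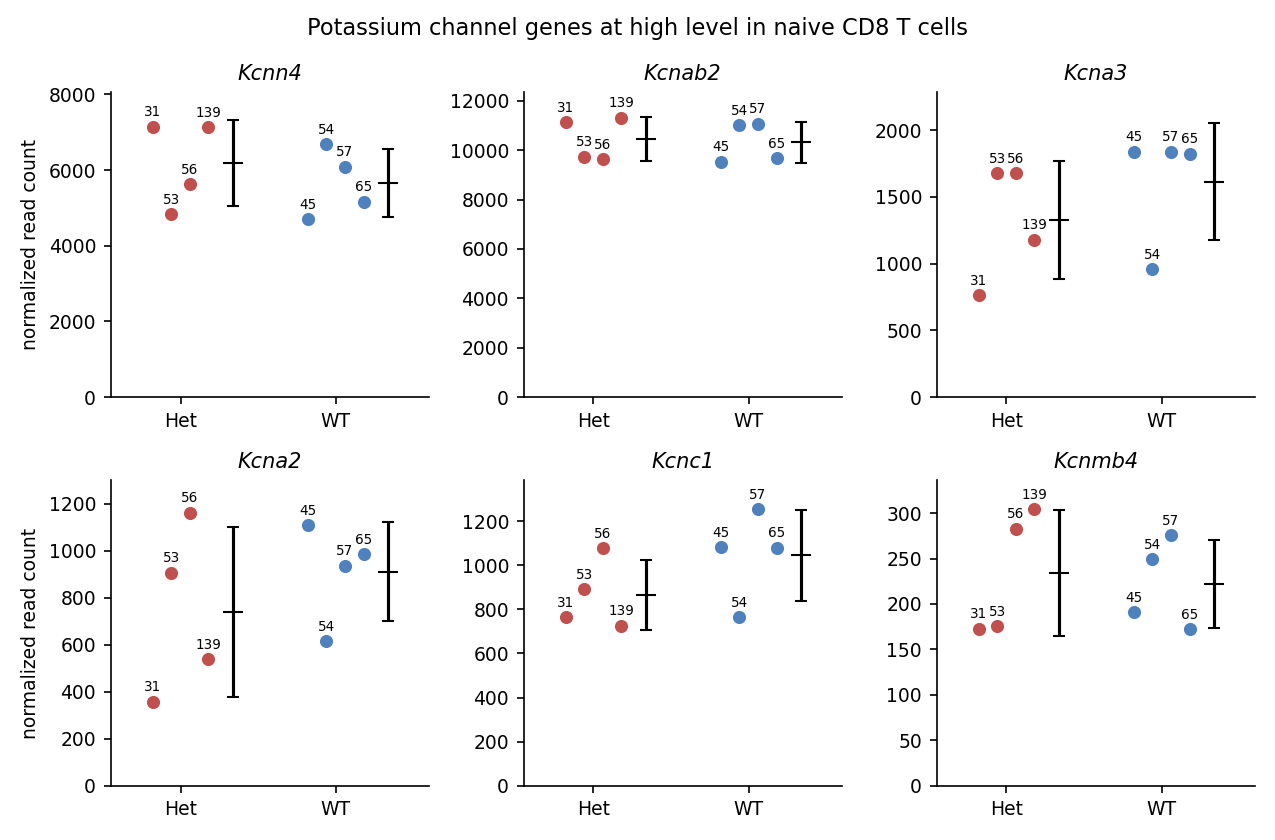
Normalized read count (linear axis from 0) of 6 potassium channel genes in each library, labelled by library number, with the mean and SD of each genotype (n = 4) as a bar. The genotypes overlap in each gene; Het 31, Het 139 and WT 54 are the lowest libraries for Kcna3, Kcna2 and Kcnc1.

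Kcna2, which in nerve is the partner of Kcna1, was not near 0 in any Het library and did not pass the test. It was at 357.5, 905.3, 1162.1 and 536.9 in Het 31, 53, 56 and 139, and at 1108.8, 613.9, 936.4 and 984.4 in WT 45, 54, 57 and 65. The WT range lay within the Het range, and Het 31 and Het 139 were below and Het 56 above each WT library. The means were 740 ± 362 in Het and 911 ± 211 in WT (SD, n = 4 each). The log2 difference was -0.41 (SE 0.33, 95% interval -1.14 to 0.32, limma adjusted p = 0.748), an interval that does not leave out a 2-fold decrease. Kcna2 lies next to Kcna3 on mouse chromosome 3.

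Kcnc1 encodes a fast voltage-gated channel of rapidly firing neurons that is also known from mouse T cells. It was at 765.7, 890.6, 1077.0 and 725.3 in Het 31, 53, 56 and 139, and at 1081.3, 763.2, 1254.8 and 1079.9 in WT 45, 54, 57 and 65. The mean was 865 ± 158 in Het and 1045 ± 205 in WT (SD, n = 4 each), with a log2 difference of -0.27 (SE 0.17, limma adjusted p = 0.690). The lowest 3 libraries were again Het 139, WT 54 and Het 31.

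Het 31, Het 139 and WT 54 thus had the 3 lowest values of Kcna3, Kcna2 and Kcnc1 and the 3 highest of Kcnn4. Of these, Het 139 and Het 31, also had the highest Kcnab2, followed by WT 57 (11077.6) and WT 54 (11004.7). Since the Kcna3 values fall into separate groups of 3 and 5 libraries, no correlation was computed over the 8, and the relation could not be tested within so few. The pattern was noticed after the values had been seen. The ratio of Kcna2 to Kcna3 varied less than either gene, from 0.455 to 0.693 in Het and from 0.510 to 0.640 in WT libraries.

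**Figure D3:**
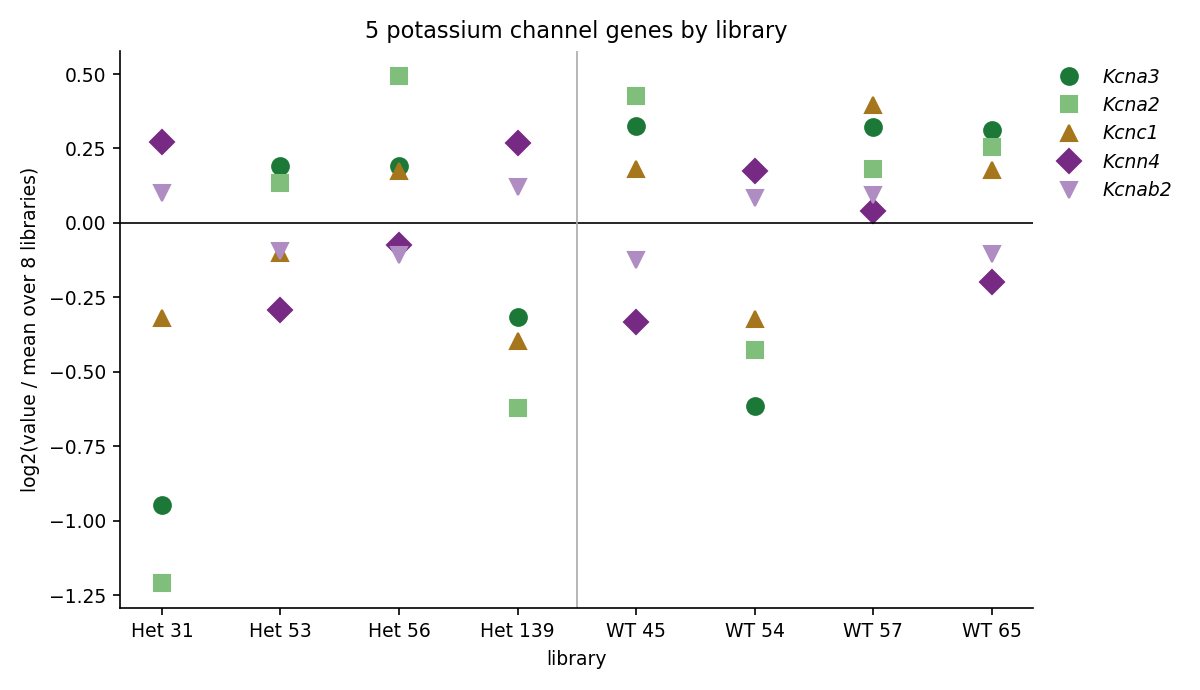
Level of 5 potassium channel genes in each library as log2(value / mean over the 8 libraries), Het libraries left of the grey line and WT libraries right of it; each gene has its own symbol. In Het 31, Het 139 and WT 54, Kcna3, Kcna2 and Kcnc1 lie below their means and Kcnn4 above its mean.

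The sequences before the transcription starts of 4 pore genes (Kcna3, Kcna2, Kcnc1 and Kcnn4) are shown because of the pattern above, which was noticed in the values and not tested. Each is the 250 bases upstream of the RefSeq start on build GRCm38.p6, plus strand: Kcna3 at chr3:107035912-107036161, Kcna2 at chr3:107101317-107101566, Kcnc1 at chr7:46396218-46396467 and Kcnn4 at chr7:24370013-24370262. Capitals mark GGAAA, the core bound by NFAT, on either strand.
Kcna3: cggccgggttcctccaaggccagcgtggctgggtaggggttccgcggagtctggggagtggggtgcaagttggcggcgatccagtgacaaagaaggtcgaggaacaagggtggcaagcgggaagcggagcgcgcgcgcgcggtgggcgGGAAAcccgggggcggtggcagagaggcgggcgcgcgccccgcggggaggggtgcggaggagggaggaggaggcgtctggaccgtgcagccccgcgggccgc
Kcna2: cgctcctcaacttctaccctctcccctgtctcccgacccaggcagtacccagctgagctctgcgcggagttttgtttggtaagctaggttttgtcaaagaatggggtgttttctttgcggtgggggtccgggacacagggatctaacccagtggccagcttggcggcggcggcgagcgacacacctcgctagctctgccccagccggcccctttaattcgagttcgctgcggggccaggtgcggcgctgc
Kcnc1: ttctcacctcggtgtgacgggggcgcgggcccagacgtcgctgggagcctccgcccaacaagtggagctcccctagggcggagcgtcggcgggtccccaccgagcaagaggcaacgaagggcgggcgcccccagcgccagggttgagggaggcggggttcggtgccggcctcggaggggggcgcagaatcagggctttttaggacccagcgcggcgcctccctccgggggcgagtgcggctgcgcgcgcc
Kcnn4: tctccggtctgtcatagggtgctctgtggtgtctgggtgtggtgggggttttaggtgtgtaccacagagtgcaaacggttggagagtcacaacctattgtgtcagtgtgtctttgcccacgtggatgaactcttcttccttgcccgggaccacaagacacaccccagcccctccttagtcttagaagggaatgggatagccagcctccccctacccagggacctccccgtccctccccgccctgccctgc
Kcna3 held 1 such core and the other 3 windows held none, where 55.6% of 32851 promoter windows of this length hold one. CG dinucleotides numbered 31 in Kcna3, 18 in Kcna2, 30 in Kcnc1 and 6 in Kcnn4, against a median of 6 over all windows. A count of at least 31, 18 and 30 was reached by 5.19%, 21.7% and 5.94% of windows. The GC box CCGCCC, searched on each strand, matched 2 times in Kcna3, 3 in Kcnc1, 1 in Kcnn4 and 0 in Kcna2, and is held by 32.7% of windows. TATAAA matched in none of the 4 and is held by 12.4% of windows. The E box CACGTG matched in Kcnn4 alone of the 4 and is held by 6.02% of windows, and TGACGTCA, the cyclic AMP response element, matched in none of the 4 and is held by 1.55%. These matches describe the letters and not bound sites.

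Among the 8 channel and subunit genes averaging at least 100, levels were ordered per kilobase of exon. Kcnn4 was at 2317 to 3522 per kb and Kcnab2 at 2309 to 2737 over the 8 libraries, which overlap, and Kcna3 followed at 401 to 967. Kcnmb4 (126 to 222), Kcnc1 (77.3 to 134), Kcnh2 (63.8 to 109), Kcna2 (30.03 to 97.6) and Kcnh3 (30.2 to 50.7) came next, each overlapping its neighbour in the order. Thus Kcna2, with 11.9 kb of merged exons against 1.90 kb for Kcna3, was well below Kcna3 per kb in each genotype. The levels were 62.2 ± 30.4 against 696 ± 232 in Het, and 76.5 ± 17.7 against 849 ± 230 in WT libraries (SD, n = 4 each). The exon lengths are those of a later annotation than the one used for counting. They merge all annotated exons of a gene, and which of them these cells transcribe was not tested.

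Kcna1, the axonal channel gene, fell in Het libraries to values at or near 0. Its normalized read count was 0, 0, 7.7 and 0 in Het 31, 53, 56 and 139, and 41.5, 184.8, 179.8 and 125.1 in WT 45, 54, 57 and 65. It was listed at 0 in 3 of the 4 Het libraries, and Het 56 held the exception, a value worth few reads. Among WT libraries, WT 45 was the lowest, and the genotypes did not overlap. Kcna1 passed the filter through its WT values alone (mean 1.925 in Het and 132.8 in WT). The log2(value + 1) difference was -6.08 (SE 0.81, 95% interval -7.87 to -4.28, limma adjusted p = 0.0128). An exact permutation test gave p = 0.0286, the smallest possible with 4 against 4. The call was lost without WT 54, 57 or 65 (limma adjusted p = 0.0730, 0.0769 and 0.0589), while the difference stayed between -6.86 and -5.82 whichever library was left out.

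Transcripts of nerve and connective tissue were, like Kcna1, mostly lower in Het libraries, and their part in the result was not tested. Of 16 neuron and axon markers, 14 were tested, all 14 were lower in Het (median log2 difference -3.06, against 0.01 over all tested genes) and 2 passed. Mtap1b, a neuronal microtubule protein, was at 2.4, 7.8, 76.1 and 7.9 in Het 31, 53, 56 and 139, against 396.3, 1719.7, 1571.6 and 1827.9 in WT 45, 54, 57 and 65 (limma adjusted p = 0.0102). Snap25, which acts in synaptic vesicle fusion, was at 0, 0, 15.0 and 6.0 in the same Het libraries, against 78.2, 153.2, 151.1 and 210.8 in the WT libraries (limma adjusted p = 0.0254). Each of these and Kcna1 had its highest Het value in Het 56 and its lowest WT value in WT 45. Snap25 passed the filter through its WT values alone (mean 5.25 in Het and 148.3 in WT), as did the marker Scn9a (0.8 in Het and 46.08 in WT). The summed level of the list was 35730 to 53619 in Het and 36000 to 59850 in WT libraries. At least 87.2% of it was Thy1, which mouse T cells express, and without Thy1 it was 673 to 1487 in Het and 1906 to 4597 in WT libraries. None of the 16 markers was at 0 in all 4 Het libraries.

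Schwann cell markers, known from the glia that wrap peripheral axons, were lower in 7 of 8 tested genes (median log2 difference -1.02), and 2 passed. S100b, a calcium-binding protein, was at 0.9, 3.2, 15.0 and 1.9 in Het 31, 53, 56 and 139, against 93.0, 225.8, 238.6 and 206.2 in WT 45, 54, 57 and 65 (limma adjusted p = 0.00667). Pmp22, a myelin membrane protein, was at 1.5 to 38.3 in Het and 91.2 to 229.4 in WT libraries (limma adjusted p = 0.0357). S100b passed the filter through its WT values alone (mean 5.25 in Het and 190.9 in WT). The 12 markers summed to 10103 to 11143 in Het and 10963 to 12473 in WT libraries. Mbp, which T cells also express in part, made up at least 82.4% of that, and the other 11 summed to 659 to 1026 in Het and 1358 to 2019 in WT libraries. Cdh19 and Gfra3 were listed at 0 in all 4 Het libraries. Fibroblast markers were lower in 6 of 6 tested genes (median log2 difference -2.81, summed level 184 to 822 in Het and 844 to 5094 in WT libraries), and 1, Dcn, passed (limma adjusted p = 0.00536). Pdgfra and Lum passed the filter through their WT values alone (means 2.2 and 9.3 in Het, 22.9 and 69.97 in WT). Among WT libraries the fibroblast sum did not follow Kcna1. It was 3938, 5094, 1259 and 844 in WT 45, 54, 57 and 65.

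The proteins that assemble with Kcna1 beside the node gave a mixed picture. Of 10 genes, 6 were tested, of which 5 were lower in Het and 1 passed (median log2 difference -1.31). Adam22, a membrane protein of the Kcna1 complex, fell to 7.8, 2.1, 3.2 and 3.8 in Het 31, 53, 56 and 139, against 26.0, 40.6, 42.9 and 82.0 in WT 45, 54, 57 and 65 (log2 difference -3.22, SE 0.54, limma adjusted p = 0.0292). Dlg2, a scaffold protein of synapses and axons, was at 3.8 to 14.0 in Het and 20.9 to 63.6 in WT libraries (limma adjusted p = 0.240). Epb4.1l3, a cytoskeletal linker, was at 22.9 to 73.7 in Het and 54.8 to 186.7 in WT libraries (limma adjusted p = 0.401). Adam22 and Dlg2 passed the filter through their WT values alone (means 4.225 and 8.425 in Het, 47.88 and 38.1 in WT). Lgi3 was listed at 0 in each Het library.

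Apart from Kcna2, the other axonal channel genes described here were too low to be tested. Kcnq3, a subunit of the M-current channel of the axon initial segment, was listed at 0 in the 4 Het libraries and was at 1.9, 1.9, 4.6 and 1.0 in WT 45, 54, 57 and 65. Kcnk2, a mechanically gated leak channel of nodes, was listed at 0 in the 4 Het libraries and was at 1.9, 4.1, 2.2 and 7.4 in WT 45, 54, 57 and 65. Its relative Kcnk4 was at 1.9 in WT 65 and at 0 in the other 7 libraries. These WT values are near that of 1 to a few reads in a Het library. With no filter on low values, Kcnk2 passed (log2 difference -2.16, SE 0.39, limma adjusted p = 0.0455) and Kcnq3 did not (limma adjusted p = 0.0890), in a fit that called 0.652% of 17496 genes as lower in Het.

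Genes of the calcium entry pathway that these channels serve were, like Kcnn4 and Kcna3, without a call. Of 22 tested genes of calcium entry and calcineurin signalling, 14 lay lower in Het libraries and 8 higher (median log2 difference -0.08), and none passed. The smallest p-values were those of Orai3, a calcium channel pore subunit, at 755.7 to 1191.2 in Het and 781.8 to 900.8 in WT libraries (limma adjusted p = 0.653), Nfatc1, a calcium-dependent transcription factor, at 6993.1 to 8831.0 in Het and 7680.1 to 9718.5 in WT libraries (limma adjusted p = 0.685), and Ppp3cb, a catalytic subunit of calcineurin, at 3228.2 to 5253.7 in Het and 3198.0 to 4225.7 in WT libraries (limma adjusted p = 0.690). Of 11 partners of Kcna3 and Kcnn4, 9 lay higher in Het libraries and 2 lower (median log2 difference 0.11), and none passed. Nme2, a histidine kinase that activates Kcnn4, was at 3517.6, 2531.7, 1226.0 and 1606.1 in Het 31, 53, 56 and 139, against 1166.2, 1316.4, 1314.7 and 2342.9 in WT 45, 54, 57 and 65 (limma adjusted p = 0.702). Itgb1, an integrin found with Kcna3, was at 2403.2 to 3465.8 in Het and 2352.3 to 2747.0 in WT libraries (limma adjusted p = 0.705).

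Kcnq1ot1, a noncoding RNA that is transcribed antisense to Kcnq1 from the paternal chromosome and silences imprinted neighbours, came nearest to the threshold after Kcna1. Its normalized read count was 61.0, 106.4, 81.8 and 63.6 in Het 31, 53, 56 and 139, and 272.6, 144.1, 165.9 and 234.1 in WT 45, 54, 57 and 65. The genotypes did not overlap, with means of 78.2 ± 20.95 in Het and 204 ± 59.6 in WT (SD, n = 4 each). The log2 difference was -1.36 (SE 0.27, 95% interval -1.97 to -0.76) and missed the threshold (limma adjusted p = 0.0697). Kcnq1 itself was at 0 to 6.0 in Het and 0 to 1.1 in WT libraries. The strand setting of the counting is not given in the sources used here, so reads of Kcnq1ot1 and of Kcnq1 cannot be told apart. Kcna1 and Kcnq1ot1 were the 2 of 24 tested members whose genotypes did not overlap, and among all tested genes 2.86% were lower in Het without overlap.

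Kcnj8, the pore of an ATP-sensitive inward rectifier of vascular smooth muscle and pericytes, was the third member with an unadjusted p under 0.05, where 8.19% of all tested genes had one. It was at 84.3, 45.1, 35.7 and 97.1 in Het 31, 53, 56 and 139, and at 16.6, 36.2, 36.1 and 22.4 in WT 45, 54, 57 and 65. Het 31 and 139 were the highest and Het 56 lay within the WT range. The log2 difference was 1.16 (SE 0.42, 95% interval 0.23 to 2.09, limma adjusted p = 0.489). Kcnh4, a voltage-gated channel of brain below the filter, was named after its values had been seen. It was at 12.5, 11.4, 13.8 and 7.9 in Het 31, 53, 56 and 139, and at 1.4, 0, 5.8 and 4.8 in WT 45, 54, 57 and 65, without overlap (limma adjusted p = 0.314 with no filter on low values).

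**Figure D4:**
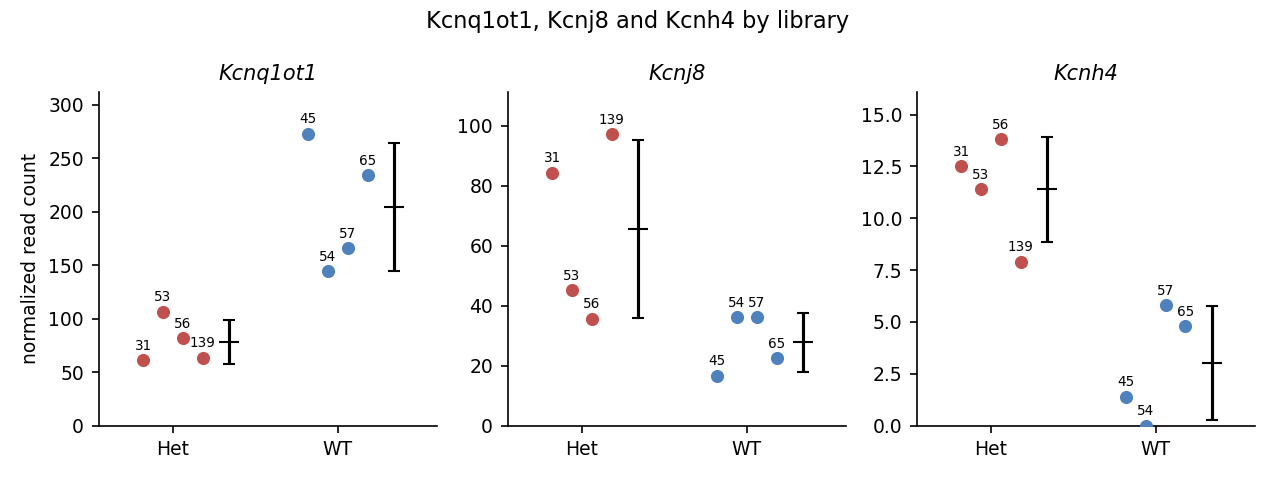
Normalized read count (linear axis from 0) of Kcnq1ot1, Kcnj8 and Kcnh4 in each library, labelled by library number, with the mean and SD of each genotype (n = 4) as a bar. Kcnq1ot1 is lower and Kcnh4 higher in each Het library than in each WT library, while Kcnj8 overlaps; none of the 3 passed the adjusted threshold.

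Among the other voltage-gated pore genes, Kcnh2, the channel that repolarizes the heart muscle cell, was at 307.4 to 504.9 in Het and 296.3 to 410.8 in WT libraries (limma adjusted p = 0.933). Kcnh3, a brain channel of the same family, was at 111.7 to 187.6 in Het and 146.3 to 174.7 in WT libraries (limma adjusted p = 0.942). Its exons overlap those of Mcrs1, as those of Kcnab3, Kcnd3, Kcnh7, Kcnmb4 and Kcnq5 overlap another annotated gene, so their values are uncertain. Kcnq5, a neuronal and smooth muscle channel, was at 60.2 to 121.2 in Het and 89.9 to 112.5 in WT libraries (limma adjusted p = 0.910). Kcnh5 was at 5.6 to 37.1 in Het and 1.9 to 24.9 in WT libraries and Kcnd1 at 4.8 to 31.7 in Het and 4.9 to 23.9 in WT libraries, neither of them past the threshold. Of the 10 tested voltage-gated pore genes, 2 were higher and 8 lower in Het, and 4 higher and 6 lower with quantile normalization of the log2 values. Without Het 139, 5 were higher and 4 lower.

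Auxiliary subunits had no call either. Kcnmb4 encodes a beta subunit of the large-conductance calcium-activated channel and was at 172.6 to 304.0 in Het and 172.2 to 275.6 in WT libraries (log2 difference 0.05, which was -0.13 with array weights, limma adjusted p = 0.960). The pore it modulates, Kcnma1, was at 0, 0, 17.9 and 4.8 in Het 31, 53, 56 and 139, and at 6.4, 1.0, 7.8 and 7.9 in WT 45, 54, 57 and 65. Kcnip3, a calcium-binding protein that also acts as a transcriptional repressor, was at 24.0 to 63.6 in Het and 28.6 to 43.2 in WT libraries (limma adjusted p = 0.805). Kcnip2, which binds Kcnd channels, was at 19.7 to 30.1 in Het libraries, at 3.4 and 2.4 in WT 45 and 54, and at 21.8 and 26.5 in WT 57 and 65 (log2 difference 1.31, SE 0.72, limma adjusted p = 0.653). Kcnrg, a regulator of Kcna channel assembly, ranged from 0 to 31.7 in Het and from 1.5 to 24.8 in WT libraries (limma adjusted p = 0.889).

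Inward rectifier and tandem pore genes were at low levels in all 8 libraries. Kcnj10, a channel of glia and kidney, was at 42.8 to 81.1 in Het and 41.5 to 78.2 in WT libraries, and Kcnj16, which pairs with it, at 48.2 to 81.1 in Het and 64.4 to 67.3 in WT libraries (limma adjusted p = 0.986 and 0.958). Of the tandem pore leak channels, Kcnk6 was at 49.4 to 117.1 in Het and 72.1 to 125.2 in WT libraries, and Kcnk7 at 13.1 to 21.8 in Het and 6.6 to 18.3 in WT libraries. Kcnk5, an acid-sensitive leak channel, spread widely within each genotype, at 87.5, 72.5, 5.5 and 49.6 in Het 31, 53, 56 and 139 and at 33.0, 43.3, 17.1 and 55.2 in WT 45, 54, 57 and 65 (limma adjusted p = 0.969).

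The remaining 71 potassium channel genes had a mean under 10 and were not tested. Of these, 6 were at 0 in all 8 libraries, 29 were above 0 in WT libraries alone, 2 in Het libraries alone and 34 in each genotype, and the highest single value was 23.7 (Kcnd3 in WT 45). The same split was not made over all untested genes. Over the whole table, 61.3% to 64.8% of genes were above 0 in Het and 67.9% to 68.9% in WT libraries. The number above 0 in a library was 10 to 20 in Het and 40 to 48 in WT libraries, but a value of 0.2 to 0.3 can be seen in WT libraries alone. At a value of 5 or more, above that of 1 read in each library, 5, 4, 6 and 3 of the 71 were seen in Het 31, 53, 56 and 139, and 6, 9, 7 and 14 in WT 45, 54, 57 and 65 (exact 2-sided permutation p = 0.0571). Over all 10561 untested genes, 788 to 884 reached that value in Het and 675 to 927 in WT libraries. Kcnb2, a delayed rectifier of neurons and muscle, was at 0, 0, 1.9 and 0 in Het 31, 53, 56 and 139 and at 4.6, 7.1, 2.9 and 20.9 in WT 45, 54, 57 and 65. Kcnd3, a transient current channel of heart and brain, was at 0 to 4.9 in Het and 4.1 to 23.7 in WT libraries. Kcnh7, a brain channel, was listed at 0 in the 4 Het libraries and was at 0, 8.1, 2.2 and 21.7 in WT 45, 54, 57 and 65. With no filter on low values, Kcnb2, Kcnd3 and Kcnh7 did not pass (limma adjusted p = 0.121, 0.302 and 0.340).

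Markers of other cells that a spleen isolate could hold were looked up as well, and their part in the channel values was not tested. B cell markers were higher in 6 of 6 tested genes (median log2 difference 0.54, summed level 2752 to 14062 in Het and 2070 to 5799 in WT libraries), myeloid markers in 5 of 6 (0.50, 869 to 3678 in Het and 1074 to 2106 in WT libraries), NK cell markers in 5 of 5 (1.01, 804 to 5226 in Het and 569 to 1874 in WT libraries) and platelet markers in 5 of 5 (0.49, 218 to 747 in Het and 235 to 359 in WT libraries). No member of these 4 lists passed the test. Muscle markers were higher in 3 of 4 tested genes (0.21), with a summed level of 28.3 to 253 in Het and 26.6 to 158 in WT libraries, and keratinocyte markers were lower in 4 of 4 (-1.44), with a summed level of 106 to 733 in Het and 75 to 4810 in WT libraries, high in WT 45 and 54. None of those passed either.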

How the data were processed

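The 8 libraries were 4 Het and 4 WT, grouped by title. The authors' deposited table holds a linear signal per gene, a normalized read count with 1 decimal, and its sorted values are nearly the same in each library (within 0.947% of their mean at each of the 9513 ranks averaging at least 100). CASAVA, TopHat2, HTSeq, DESeq and mm9 are named per the submitters' processing notes, without roles or versions; the normalization step is not given in the sources used here. Shared distributions hide differences in total RNA, and no count model was used.

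All genes with a mean of at least 10 were fitted with limma 3.58.1 in R 4.3.3 (trend, log2(value + 1), 2-sided, Benjamini-Hochberg over 12048 genes), which understates changes of low genes. The fit was also run on simulated data, in which changes were placed only in genes at a higher mean log2 level than Kcna1. That run therefore does not bear on the Kcna1 call. Single values were compared with an exact permutation test over 70 assignments. Members and lists were chosen with earlier results of these data known. Named were all Kcn genes with a mean of at least 10 or a value of at least 20 in any library, Kcna1, Kcna3 and Kcnn4, and of each other list the genes past the threshold and up to 3 with the smallest p, not all of which are described, and a few are not reported here; others were named after their values had been seen. Exon lengths came from GENCODE vM21 and promoter sequences from RefSeq (GRCm38.p6), which matched 70 of the 95 symbols. The calcium list had 22 of 23 genes in the table and the myeloid list 6 of 7. Alternatives were the pseudocount (0.5 or 5), the filter, scaling, array weights, no trend, a robust fit and leaving out each library.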

Additional observations from a re-analysis of the deposited data

Results flagged for a closer look

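A library is listed here where its gap to the nearest of the other 3 of its genotype took up nearly all of the range. By chance about 1 of 20 groups without tied values shows this. In all, 52 groups (26 genes in each genotype) were screened and 3 were found. In the Het groups of Kcna1 and Kcnb2 the other values were at 0, so any value above 0 met the rule. The chance rate does not apply to those groups. Kcna1 was at 7.7 in Het 56 and at 0 in the other Het libraries. Kcnb2 was at 1.9 in Het 56, the value of about 1 read there, and at 0 in the other Het libraries. Kcna3 was at 958.6 in WT 54 and at 1822.8 to 1839.4 in the other WT libraries.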

How the results depend on the processing

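No paired analysis was possible because the genotypes share no replicate number. Kcna1 was lower in Het under each of the 17 alternatives (log2 difference -6.86 to -4.26, limma adjusted p = 0.000905 to 0.0769) and was the 1 changed Kcn gene under most of them. With genes of a mean of at least 50 alone, 0 Kcn genes passed (limma adjusted p of Kcna1 0.0622) and 14 genes in all; with no filter, 2 Kcn genes (Kcna1 and Kcnk2) and 123 genes in all. Leaving out 1 library gave 0 to 1 Kcn genes, 0 without WT 54, 57 or 65, and 11 to 91 genes in all. Genes higher in Het numbered 10 with no trend, 9 with no filter, 3 without Het 56 and 1 with array weights or without WT 65, and 0 under the other alternatives. Against 62 genes with all libraries, there were 11 without WT 57, 16 without WT 54 or 65, 21 without Het 53, 27 without Het 31 and 30 without Het 139. Kcnq1ot1 missed the threshold under each of 17 alternatives (limma adjusted p = 0.0631 to 0.199).

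Genes whose sign turned had no call before or after. Without 1 library the log2 difference ranged from -0.020 to 0.056 for Kcnab2, -0.15 to 0.45 for Kcnab3, -0.53 to 0.30 for Kcnd1, -0.09 to 0.15 for Kcnh2, -0.14 to 0.11 for Kcnh3, -0.20 to 0.13 for Kcnj10, -0.18 to 0.068 for Kcnj16, -0.28 to 0.97 for Kcnk5, -0.27 to 0.14 for Kcnk6, -0.09 to 0.18 for Kcnmb4 and -0.23 to 0.10 for Kcnq5. With array weights it was -0.018 for Kcnab2, -0.032 for Kcnh2, 0.008 for Kcnh3 and -0.13 for Kcnmb4; with quantile normalization of log2 values, 0.051 for Kcnd1; with median of ratios scaling, -0.001 for Kcnab2. The cause was not tested.

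The lowest value above 0 was 0.9 to 1.9 in Het and 0.2 to 0.3 in WT libraries, and its part in the number of genes above 0 was not tested.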
